A study of Homo sapiens with 18 samples.

Results

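The cold-inducible RNA-binding protein genes CIRBP and RBM3 and 7 genes for proteins of nuclear speckles and the CLK kinase system (ARGLU1, CLK1, CLK2, CLK4, LUC7L3, PNISR and SRSF5) were followed through 18 mRNA-seq libraries of the erythroleukaemia cell line K562. The 9 genes were taken by name from the 24395 genes to which the deposited RefSeq transcripts could be assigned, and they hold 17 of the 40709 transcripts. They were chosen by name after an earlier analysis of these libraries, and so were selected on count levels measured here, though not on a stated contrast. Therefore their levels across the lentiviral and untransduced cells and across replicate numbers are given as a description: where a count of calls is printed for these contrasts, it supports nothing. Tests are read only in the comparisons of guides and of dCas9-KRAB with dCas9. Calls in the related gene lists, which were chosen with earlier results known, are printed for the lentiviral and replicate-number contrasts and are description too.

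The series asked which genes respond, on and off target, when dCas9-KRAB, a nuclease-dead Cas9 joined to the KRAB repressor domain, is guided to HS2, a distal enhancer of the globin genes. The 6 groups of 3 libraries were KRAB_CR4 and KRAB_CR10 (dCas9-KRAB with the HS2 guide Cr4 or Cr10), dCas9_CR4 and dCas9_CR10 (dCas9 with no repressor and the same guides), KRAB_no_gRNA (dCas9-KRAB and no guide) and no_lentivirus (untransduced cells). Transduced cells received lentivirus with polybrene at 4 µg/ml, and puromycin at 1 µg/ml from about 96 hours, and the labels do not say whether untransduced cells received either reagent. All cells came from 1 established line and were grown at 37 °C, and the labels name no cold treatment. The transduced cells were selected populations that carried the transgene from a stable lentivirus, and the groups were described as transduced in triplicate.

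CIRBP and RBM3 are small glycine-rich proteins with 1 RNA recognition motif. Their mRNAs are known to rise under mild hypothermia and to fall at higher temperature, and both proteins influence translation and the choice of polyadenylation sites. CLK1, CLK2 and CLK4 are dual-specificity kinases that phosphorylate the serine- and arginine-rich (SR) splicing factors and so release them from nuclear speckles, the nuclear bodies where splicing factors are stored. SRSF5 is one of these SR proteins. LUC7L3 is a human relative of a yeast U1 snRNP subunit, ARGLU1 is an arginine- and glutamate-rich splicing co-factor, and PNISR is an SR-rich protein that interacts with PNN of the speckle. Several of these genes, among them CLK1, CLK4, SRSF5, CIRBP and ARGLU1, are known to make alternative or intron-retaining transcripts that are held in the nucleus or degraded.

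Upstream sequences are shown for 4 of the genes because CIRBP and RBM3 carried different motifs despite their common name, and because ARGLU1 and SRSF5 had the widest ranges of level among the 9. Each is the 250 bases before the RefSeq transcription start (GRCh38.p14), written 5′ to 3′ on the gene's strand: CIRBP chr19:1269082-1269331 on the plus strand, RBM3 chrX:48574234-48574483 on the plus strand, ARGLU1 chr13:106568138-106568387 on the minus strand and SRSF5 chr14:69766892-69767141 on the plus strand. Capitals mark GGGCGG (the GC box) or CCGGAA (the core bound by ETS factors) on either strand.
CIRBP: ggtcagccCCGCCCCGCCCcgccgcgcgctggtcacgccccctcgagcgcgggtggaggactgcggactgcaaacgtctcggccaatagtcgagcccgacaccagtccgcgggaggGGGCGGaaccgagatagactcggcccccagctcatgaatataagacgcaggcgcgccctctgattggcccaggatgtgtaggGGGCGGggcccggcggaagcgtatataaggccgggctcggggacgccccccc
RBM3: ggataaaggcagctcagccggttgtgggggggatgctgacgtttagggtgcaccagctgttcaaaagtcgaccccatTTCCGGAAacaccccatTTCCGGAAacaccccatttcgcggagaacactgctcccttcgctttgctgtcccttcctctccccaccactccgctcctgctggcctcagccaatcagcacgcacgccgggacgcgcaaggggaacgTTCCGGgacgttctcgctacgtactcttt
ARGLU1: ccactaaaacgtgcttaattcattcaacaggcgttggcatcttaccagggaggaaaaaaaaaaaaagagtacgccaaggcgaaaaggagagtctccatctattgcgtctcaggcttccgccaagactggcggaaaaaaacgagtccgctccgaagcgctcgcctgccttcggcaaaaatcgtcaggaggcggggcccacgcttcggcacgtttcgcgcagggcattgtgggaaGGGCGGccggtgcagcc
SRSF5: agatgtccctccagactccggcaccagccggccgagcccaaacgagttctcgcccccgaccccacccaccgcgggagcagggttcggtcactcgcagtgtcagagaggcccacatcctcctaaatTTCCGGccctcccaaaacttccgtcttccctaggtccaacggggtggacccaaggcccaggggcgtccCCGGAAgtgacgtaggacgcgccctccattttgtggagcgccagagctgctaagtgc
The CIRBP window was 71.2% G or C and held 4 GC boxes, no ETS core and 2 copies of CCAAT. The RBM3 window was 59.6% G or C and held no GC box. It held 5 matches to the ETS core, of which 4 were overlapping matches on the 2 strands at 2 palindromes, with 1 CCAAT and 1 copy of GAANNTTC, the letters of a heat shock element pair. ARGLU1 held 1 GC box and no ETS core, and SRSF5 held 2 ETS cores and no GC box.

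All 9 genes matched a window in the RefSeq table, CLK1 with 2. With each motif searched on both strands and overlaps counted, the GC box was in 6 of 9 genes and in 42.6% of all 35116 windows. The ETS core was in 3 of 9 genes (RBM3, PNISR and SRSF5) and in 14.5% of all windows. CCAAT was in 3 of 9 (CIRBP, RBM3 and LUC7L3) and in 32% of windows. GAANNTTC was in 1 of 9 and in 5.78% of windows, and TCCCCGCC, a mild cold-responsive element described for the mouse Cirbp gene, was in 0 of 9 and in 7.75% of windows. A match describes these letters in this window and not a bound site.

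Library totals ran between 22805964 and 34032962 counts, every count was even, and 99.02% of the counts fell on transcripts with a gene name. All 9 genes passed the filter on low counts, from CLK4 with 126 to 240 counts a library to RBM3 with 4686 to 8422. Levels are given below as CPM, counts scaled to a common library total after TMM normalization, which are not corrected for transcript length and so are not compared between genes. Marker levels and sums were instead scaled by library total without TMM. On that scale the 16 K562 erythroid markers checked were all above a mean of 1 CPM. Of 20 markers of other cell types 10 were above that level, with the highest means for VIM (481 CPM), KRT18 (383 CPM) and EPCAM (93.6 CPM). MS4A1 and NEFL had no count in any library. Libraries stood apart by more than their groups. On the first principal component, which held 56.9% of the variance of the 2000 most variable genes, the 5 lentiviral libraries numbered 3 lay between 6.88 and 21.6, the 10 numbered 1 or 2 between -19.7 and -9.82, and the untransduced library 2 at 51.0. In whole-culture RNA, fewer cells of a type and less RNA per cell cannot be told apart.

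CIRBP was lower in the untransduced cells than in every lentiviral library. The 15 lentiviral libraries had 79.9 to 117 CPM with a median of 97.1 CPM, against 65.5, 50.3 and 57.7 CPM in the 3 no_lentivirus libraries. The sets did not overlap. Means were 98.8 ± 10.1 CPM (SD, n = 15) in lentiviral and 57.9 ± 7.60 CPM (SD, n = 3) in no_lentivirus cells, a 1.70-fold difference (log2 0.77). Group means of CIRBP ran in the order KRAB_no_gRNA with 110 ± 2.88 CPM, dCas9_CR4 with 101 ± 14.7 CPM, dCas9_CR10 with 96.2 ± 4.85 CPM, KRAB_CR10 with 95.04 ± 6.89 CPM, KRAB_CR4 with 91.7 ± 10.6 CPM and no_lentivirus with 57.9 ± 7.60 CPM (SD, n = 3 each). Only the last step in that order exceeded the spread of both its neighbours.

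RBM3 did not follow CIRBP in this. Lentiviral libraries held 168 to 294 CPM with a median of 247 CPM, while the no_lentivirus libraries had 174, 186 and 188 CPM and so lay inside the lentiviral range. Means were 236 ± 38.0 CPM (SD, n = 15) against 183 ± 7.39 CPM (SD, n = 3), 1.28-fold. KRAB_no_gRNA had the highest RBM3 group mean with 265 ± 15.9 CPM, followed by KRAB_CR4 with 263 ± 18.3 CPM, dCas9_CR4 with 237 ± 49.7 CPM, KRAB_CR10 with 209 ± 25.6 CPM, dCas9_CR10 with 208 ± 42.4 CPM and no_lentivirus with 183 ± 7.39 CPM (SD, n = 3 each). No neighbours in that order differed beyond their spread.

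**Figure D1:**
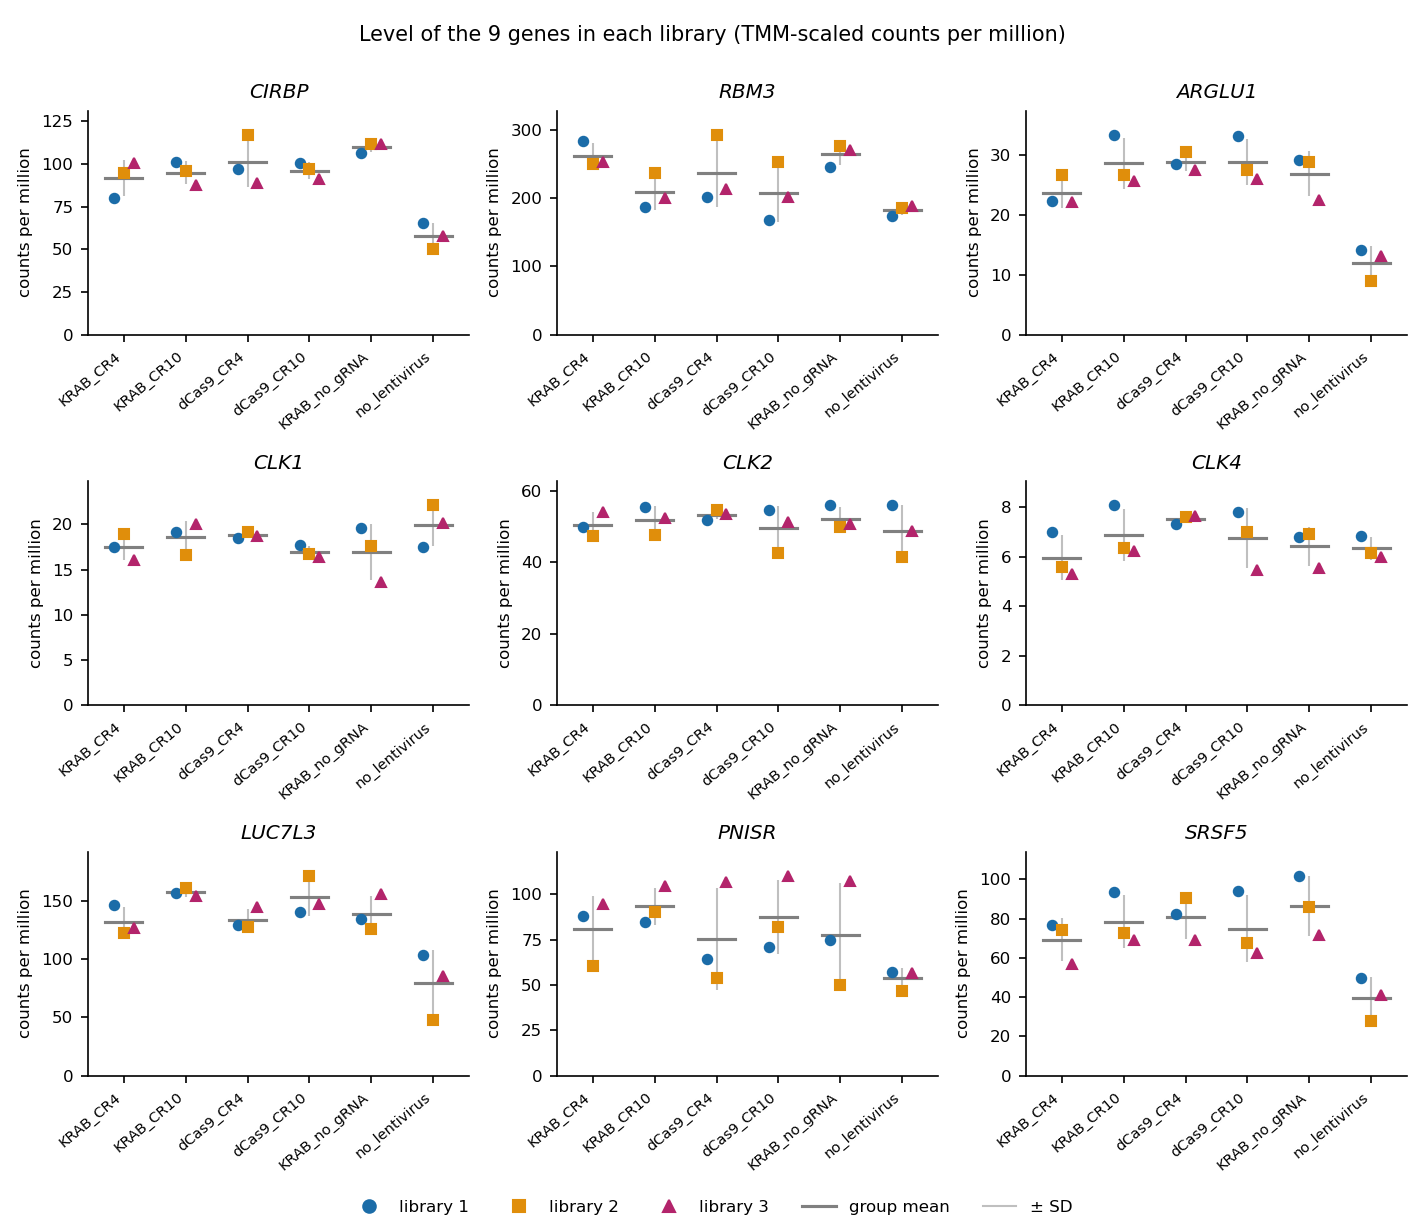
TMM-scaled CPM (y axis, starting at 0) of each of the 9 genes in the 18 libraries, by group (x axis); symbols give the library number, wide bars the group mean and thin lines ± SD of 3 libraries. CIRBP, ARGLU1, LUC7L3 and SRSF5 sit lower in all 3 no_lentivirus libraries than in all 15 lentiviral libraries, and PNISR is highest in library 3 of each lentiviral group.

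ARGLU1 had the largest ratio of highest to lowest library among the 9 genes, 3.73. It stood at 22.0 to 33.3 CPM with a median of 27.4 CPM in lentiviral libraries, against 14.0, 8.93 and 13.01 CPM in no_lentivirus libraries. These ranges did not meet. Means were 27.3 ± 3.47 CPM (SD, n = 15) and 11.99 ± 2.70 CPM (SD, n = 3), a 2.27-fold difference (log2 1.18). Among the lentiviral groups the ARGLU1 means ranged from 23.6 ± 2.59 CPM in KRAB_CR4 to 28.8 ± 3.83 CPM in dCas9_CR10 (SD, n = 3 each).

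SRSF5, the SR protein among the 9, showed the same separation. Lentiviral libraries had 56.7 to 102 CPM with a median of 74.2 CPM, against 49.6, 27.9 and 41.0 CPM in no_lentivirus libraries. Its means were 77.9 ± 13.04 CPM (SD, n = 15) and 39.5 ± 10.9 CPM (SD, n = 3), 1.97-fold apart (log2 0.98). LUC7L3, the U1-associated protein, was at 122 to 172 CPM with a median of 145 CPM in lentiviral libraries, against 104, 47.7 and 85.5 CPM in no_lentivirus libraries. LUC7L3 was 1.80-fold higher on average (143 ± 14.9 CPM, n = 15, against 79.0 ± 28.6 CPM, n = 3; SD), again with no overlap, and the untransduced libraries differed widely among themselves. Lentiviral group means of SRSF5 ranged from 69.2 ± 10.9 CPM in KRAB_CR4 to 86.4 ± 15.3 CPM in KRAB_no_gRNA, and those of LUC7L3 from 132 ± 12.9 CPM in KRAB_CR4 to 157 ± 3.53 CPM in KRAB_CR10 (SD, n = 3 each).

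PNISR, the partner of PNN, overlapped between the sets. It had 50.2 to 110 CPM with a median of 84.9 CPM in lentiviral libraries and 57.1, 46.8 and 56.8 CPM in no_lentivirus libraries, with means of 82.9 ± 19.99 CPM (SD, n = 15) and 53.6 ± 5.86 CPM (SD, n = 3). Its fold was 1.54, and the lowest lentiviral values came from libraries numbered 2.

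The 3 kinases kept close to 1 level. CLK1 had 13.6 to 20.03 CPM with a median of 17.7 CPM in lentiviral libraries, against 17.5, 22.1 and 20.1 CPM in no_lentivirus libraries, and was the 1 gene of the 9 with a negative log2 fold change, -0.17. CLK2 had 42.5 to 56.0 CPM in lentiviral and 41.4 to 55.9 CPM in no_lentivirus libraries. CLK4 had 5.30 to 8.09 CPM in lentiviral and 6.01 to 6.86 CPM in no_lentivirus libraries. The log2 folds of CLK2 and CLK4 were both 0.08. The highest library exceeded the lowest 1.63-fold for CLK1, 1.53-fold for CLK4 and 1.35-fold for CLK2. By the SD of log2 level over 18 libraries they stood at the 14.0, 23.2 and 5.38 percentiles of the 12604 genes with a mean of at least 1 CPM, where ARGLU1, SRSF5, LUC7L3, PNISR, CIRBP and RBM3 stood at the 93.1, 91.0, 87.9, 85.7, 73.6 and 52.9 percentiles.

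Over the lentiviral groups against no_lentivirus, edgeR called 4 of the 9 genes, all higher (CIRBP, ARGLU1, LUC7L3 and SRSF5), beside 18.7% of all 14713 genes called (7.55% higher and 11.2% lower). The same 4 genes lay above every no_lentivirus library in all 15 lentiviral libraries, as 3.32% of all genes did. With the replicate number as a block over all 18 libraries, RBM3 (log2 0.35, edgeR adjusted p = 0.0156) and PNISR (0.59, 0.00519) were called too, as they were by DESeq2. That block also ties each untransduced library to the lentiviral ones of its number, a match the labels do not state. The median log2 fold change was 0.62 over the 9 genes and 0.01 over all genes tested. With KRAB_no_gRNA alone against no_lentivirus, 5 were called, all higher, beside 6.63% of all genes. The fifth was RBM3, at 247, 276 and 271 CPM in KRAB_no_gRNA against 174, 186 and 188 CPM in no_lentivirus libraries, and it lost its call when any of these 6 libraries was left out. The 5 calls became 2 to 4 with 1 library left out, the 2 being without KRAB_no_gRNA library 1 or no_lentivirus library 2, and 0 with the compared groups fitted alone. Because these contrasts may have led to the choice of the genes, nothing is read from the counts.

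The untransduced library 2 was the lowest of the 18 libraries for 6 of the 9 genes (CIRBP, ARGLU1, CLK2, LUC7L3, PNISR and SRSF5) and the highest for CLK1. Over the 12604 genes it was the lowest library for 24.3% and the highest for 26.4%. Against the mean of the other 2 untransduced libraries on the log2 scale, library 2 differed by -0.97 for LUC7L3, -0.68 for SRSF5 and -0.57 for ARGLU1, by -0.29 for CIRBP and by 0.04 for RBM3, where the quartiles over all genes were -0.31 and 0.33. Without it, the lentiviral over no_lentivirus log2 fold change was 0.67 for CIRBP, 1.01 for ARGLU1, 0.59 for LUC7L3 and 0.77 for SRSF5. The same 4 genes were called in lentiviral cells without that library, and genes called over the whole table numbered 346 without it and 2755 with it. The 16 erythroid markers, summed as CPM of the library total without TMM, ran from 3700 (in KRAB_CR4) to 6017 CPM over the lentiviral libraries. In the no_lentivirus libraries they ran from 4168 to 6115 CPM. In lentiviral cells 0 of the 16 were called higher and 7 lower (6 lower without library 2). Over all genes 11.2% were called lower, and 1.36% without that library. The globin genes under HS2 among those 7 were HBE1, HBG1 and HBG2. The lentiviral mean includes KRAB_CR4 and KRAB_CR10, in each of which 3 of the 16 were called lower than in KRAB_no_gRNA. Of the markers of other cell types 12 passed the filter, and VIM was called higher while PECAM1 and LYZ were called lower, and without library 2 there was 1 higher and 0 lower. The 20 summed to 920 to 1301 CPM in lentiviral and 1009 to 1055 CPM in no_lentivirus libraries, on the same scale as the erythroid sums. Their part in the levels of the 9 genes was not tested.

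Within the lentiviral cells, the library number moved with several of the genes. PNISR was highest in the library numbered 3 of all 5 groups. The 5 libraries numbered 3 had 94.5 to 110 CPM with a median of 107 CPM, and the 10 numbered 1 or 2 had 50.2 to 90.1 CPM. These did not overlap, as 9.12% of all genes in that direction did not, and their means were 105 ± 6.06 CPM (SD, n = 5) and 71.9 ± 14.4 CPM (SD, n = 10), log2 0.58 apart. The difference within a group ran from 0.26 in KRAB_CR10 to 0.85 in dCas9_CR4 on the log2 scale.

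SRSF5 went the other way. Libraries numbered 3 had 56.7 to 71.4 CPM and a mean of 65.7 ± 6.05 CPM (SD, n = 5), against 84.0 ± 11.2 CPM (SD, n = 10) in those numbered 1 or 2, and the log2 fold change was -0.33. The 2 sets overlapped. SRSF5 was lower in number 3 of all 5 groups, by -0.26 to -0.41. ARGLU1 was also lower in 5 of 5 groups, with a mean of 24.7 ± 2.34 CPM (SD, n = 5) in number 3 and a log2 fold change of -0.19. CIRBP was higher in 2 groups and lower in 3, and RBM3 higher in 1 and lower in 4.

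**Figure D2:**
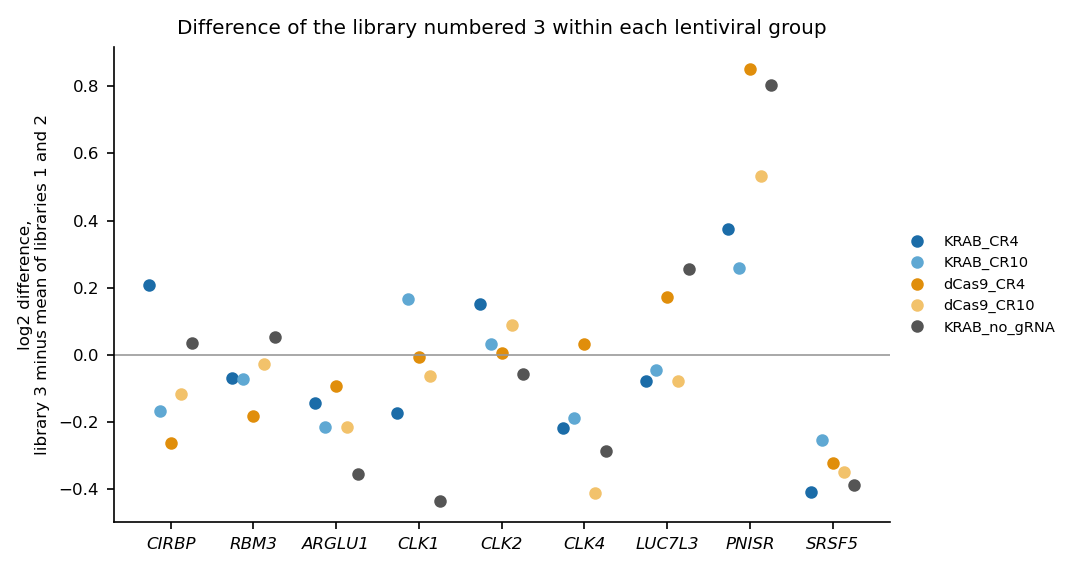
Difference of log2 level (y axis) between the library numbered 3 and the mean of libraries 1 and 2, for each of the 9 genes (x axis) in each of the 5 lentiviral groups (1 point a group). PNISR is above 0 in all 5 groups, between 0.26 and 0.85, and SRSF5 and ARGLU1 are below 0 in all 5.

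In this contrast edgeR called 3 of the 9 genes (PNISR higher, SRSF5 and ARGLU1 lower) beside 50.6% of all 14599 genes tested, 26.3% higher and 24.3% lower, and nothing is read from that count either. The ARGLU1 call lay at the threshold (edgeR adjusted p = 0.0498) and was lost when any of 9 libraries was left out. Erythroid markers were called lower in number 3 for 8 of 16 and higher for 0, and other-cell markers higher for 6 of 11 and lower for 0, with LYZ at a log2 fold change of 0.94. What the number stands for in handling was not given in the sources used here.

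No change of the 9 genes with the HS2 guides or the KRAB domain passed edgeR's quasi-likelihood test with Benjamini-Hochberg adjustment. In each of 8 comparisons, 0 of 9 were called. The background was 0.0204% of 14713 genes in each of KRAB_CR4 and KRAB_CR10 against KRAB_no_gRNA, and in KRAB_CR4 against dCas9_CR4 and KRAB_CR10 against dCas9_CR10. It was 0.0272% for both dCas9-KRAB groups with a guide against both dCas9 groups, and 0% for dCas9_CR4 and dCas9_CR10 against KRAB_no_gRNA and for KRAB_CR4 against KRAB_CR10. DESeq2 also called 0 of 9 in each. At an unadjusted p under 0.05, 1 of 9, always RBM3, passed in 3 of the 8, where 1.49% of all genes passed in KRAB_CR10 and 1.19% in dCas9_CR10 against KRAB_no_gRNA and 0.897% in KRAB_CR4 against KRAB_CR10. The largest log2 difference in size was -0.35. The 95% intervals of the 9 genes over the 8 comparisons lay between -0.79 and 0.86, so the data do not show equal levels. The fit behind these intervals had no replicate block, although lentiviral libraries numbered 3 stood apart in every group, so differences between numbers are part of their width.

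RBM3 gave the largest of these differences. KRAB_CR10 libraries had 188, 237 and 201 CPM, against 247, 276 and 271 CPM in KRAB_no_gRNA. These did not overlap, as 8.86% of all genes did not in that comparison. The log2 fold change was -0.34 (95% interval -0.68 to -0.0033), with an edgeR adjusted p of 0.999 and a raw p of 0.0418. In dCas9_CR10 the RBM3 libraries had 168, 253 and 203 CPM, overlapped KRAB_no_gRNA, and gave a log2 fold change of -0.35 (edgeR adjusted p = 1). KRAB_CR4, with 284, 250 and 254 CPM, was 0.33 above KRAB_CR10 on the log2 scale (edgeR adjusted p = 1), with no overlap, as was so for 5.06% of all genes. LUC7L3 lay the other way there, also without overlap (log2 fold change -0.25), and 8 of the 9 genes had negative log2 fold changes. These comparisons share KRAB_no_gRNA or KRAB_CR10 libraries. Between KRAB_CR10 and dCas9_CR10, which carry the same guide, RBM3 differed by 0.0048 on the log2 scale (95% interval -0.34 to 0.34).

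CIRBP had 79.9, 94.7 and 101 CPM in KRAB_CR4 and 101, 96.1 and 87.7 CPM in KRAB_CR10, against 107, 112 and 112 CPM in KRAB_no_gRNA. Neither guided group overlapped the group without a guide, and 6.8% and 8.86% of all genes did not overlap in these 2 comparisons. The log2 fold changes were -0.26 (95% interval -0.55 to 0.02; edgeR adjusted p = 0.999) and -0.21 (-0.50 to 0.07; edgeR adjusted p = 0.999). dCas9_CR10, with 101, 96.9 and 91.0 CPM, was also below KRAB_no_gRNA without overlap, by -0.19 (edgeR adjusted p = 1), where 5.84% of all genes did not overlap. Against dCas9 with the same guide, CIRBP differed by -0.14 in KRAB_CR4 and by -0.02 in KRAB_CR10.

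**Figure D3:**
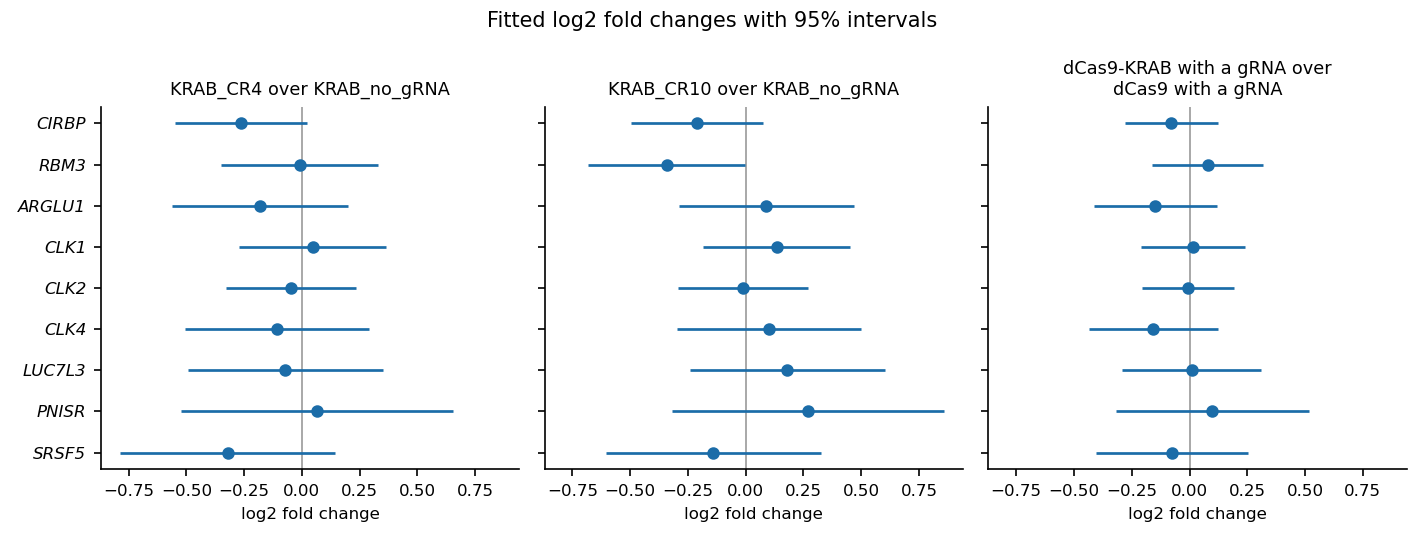
Fitted log2 fold changes (x axis) with 95% intervals (lines) of the 9 genes (y axis) in KRAB_CR4 and KRAB_CR10 over KRAB_no_gRNA and in both dCas9-KRAB groups with a guide over both dCas9 groups with a guide. Points lie between -0.34 and 0.27, and the interval of RBM3 in KRAB_CR10 over KRAB_no_gRNA is the 1 interval that leaves out 0.

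Of the splicing genes, CLK4 had 7.0, 5.58 and 5.30 CPM in KRAB_CR4, against 7.34, 7.60 and 7.64 CPM in dCas9_CR4, and ARGLU1 had 22.3, 26.6 and 22.0 CPM in KRAB_CR4, against 28.4, 30.4 and 27.5 CPM in dCas9_CR4. Neither gene's libraries overlapped, beside 3.85% of all genes. Their log2 fold changes were -0.34 (95% interval -0.74 to 0.06) and -0.28 (-0.66 to 0.10), both at an edgeR adjusted p of 1.00. Against KRAB_no_gRNA, KRAB_CR4 overlapped for both genes (CLK4 -0.11, ARGLU1 -0.18), while dCas9_CR4 lay above it without overlap for CLK4 (0.23, edgeR adjusted p = 1), beside 2.62% of all genes. With the other guide, KRAB_CR10 against dCas9_CR10, CLK4 differed by 0.025 and ARGLU1 by -0.015, and the libraries of the 2 groups overlapped for all 9 genes. The difference between the 2 guides' KRAB effects had an adjusted p of 1 for all 9 genes. CLK1, CLK2, LUC7L3, PNISR and SRSF5 had log2 fold changes between -0.08 and 0.10 over both KRAB groups against both dCas9 groups, and PNISR had the widest interval, -0.32 to 0.52.

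Transcripts of 5 of the genes could be compared within the gene. How reads that fit several transcripts were assigned is not given in the sources used here, and what this adds to the shares was not tested. The 3 CIRBP transcripts held medians of 37.9% (NM_001280), 35.0% (NR_023312) and 26.8% (NR_023313), and the last 2 are RefSeq non-coding records. The 4 CLK1 transcripts held medians of 22.8% to 27.0% and the 2 of SRSF5, PNISR and LUC7L3 each held 47.5% to 52.5%. RBM3, ARGLU1, CLK2 and CLK4 had 1 transcript each.

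Among these 5 genes, the LUC7L3 shares varied most between libraries relative to counting error. NM_016424 held 54.6 ± 2.19% of LUC7L3 counts in lentiviral libraries numbered 3 (SD, n = 5), against 49.7 ± 1.43% in those numbered 1 or 2 (SD, n = 10). In that contrast edgeR's diffSpliceDGE called 1.36% of 5356 genes and 0 of these 5, which is again a description. Between dCas9-KRAB and dCas9 with a guide, 0 of the 5 genes and 0% of 5408 genes were called by that test, and the adjusted p was 1 for all 5. As the assignment of shared reads is not known, shares may not measure transcript use, and these 0 calls do not show it unchanged.

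Genes of related families were followed as lists, chosen with earlier results known, and their calls are given as description too. The calls in lentiviral against no_lentivirus cells stand beside 7.55% of all genes higher and 11.2% lower, and most were lost without the untransduced library 2. Leaving it out also leaves fewer untransduced libraries, and the lists were not refitted without either of the others. Without that library 0.961% of all genes were called higher and 1.36% lower. Of 30 speckle proteins other than the 9 genes, 13 were called higher and 0 lower in lentiviral against no_lentivirus cells, with a median log2 fold change of 0.43, and without untransduced library 2 this became 0 in either direction with a median of 0.27. NKTR, a cyclophilin with SR repeats, was at 0.82, PNN at 0.66 and the 3′ splice site factor U2AF1 at 0.71. Of 13 other SR and SR-related proteins 3 were higher and 0 lower (TRA2A 0.57, SRSF6 0.47, SRSF2 0.75; list median 0.31; 0 in either direction and a median of 0.09 without library 2), and of 12 kinases and cyclins that act on SR proteins or on splicing 3 were higher and 0 lower (CCNL1 0.56, CCNL2 0.83, CDK11A 0.40; list median 0.26; 1 higher and a median of 0.20 without library 2). Of 12 other cold-induced or cold-shock domain genes 1 was higher and 2 lower (HSPB1 0.68, RTN3 -0.56, UCP2 -0.55; list median -0.07); HSPB1 also stands in the heat shock list. Heat shock genes had 2 of 20 higher and 0 lower, hnRNP genes 5 of 21 higher and 1 lower, nonsense-mediated decay factors 0 of 12 in either direction, immediate early genes 3 of 13 higher and 3 lower, and long non-coding RNAs 1 of 7 higher (NEAT1, 0.93) and 1 lower. Without library 2, the calls left in these lists and the cold-induced list were 1 hnRNP gene lower and 1 immediate early gene higher, and the heat shock median, 0.18 with it, was -0.11.

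Between library numbers, SR proteins were lower in number 3 for 10 of 13 (SRSF7 -0.50, SRSF1 -0.49, SRSF8 -0.44), as SRSF5 was, and higher for 1. The higher gene was SRSF12, barely detected at means of 0.51 CPM in number 3 and 0.17 CPM in numbers 1 and 2. SRSF10, lower at -0.26, is counted in this list and again among the cold-induced genes. Speckle proteins were lower for 13 of 30 and higher for 4, kinases lower for 5 of 12 and higher for 1 (CDK12 -0.83), and heat shock genes lower for 13 of 20 and higher for 0 (DNAJB1 -0.67). Decay factors were lower for 9 of 12 and higher for 2, hnRNP genes lower for 10 of 21 and higher for 2, cold-induced genes lower for 5 of 12 and higher for 3, and immediate early genes lower for 4 of 13 and higher for 3. Long non-coding RNAs were higher for 6 of 7 and lower for 0 (KCNQ1OT1 0.87, NEAT1 0.69, GAS5 0.42), the direction of PNISR. Of those 6, KCNQ1OT1, NEAT1 and MALAT1 are known as nuclear RNAs, while GAS5, SNHG1 and OIP5-AS1 also occur in the cytoplasm. These counts stand beside 26.3% of all genes higher and 24.3% lower.

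**Figure D4:**
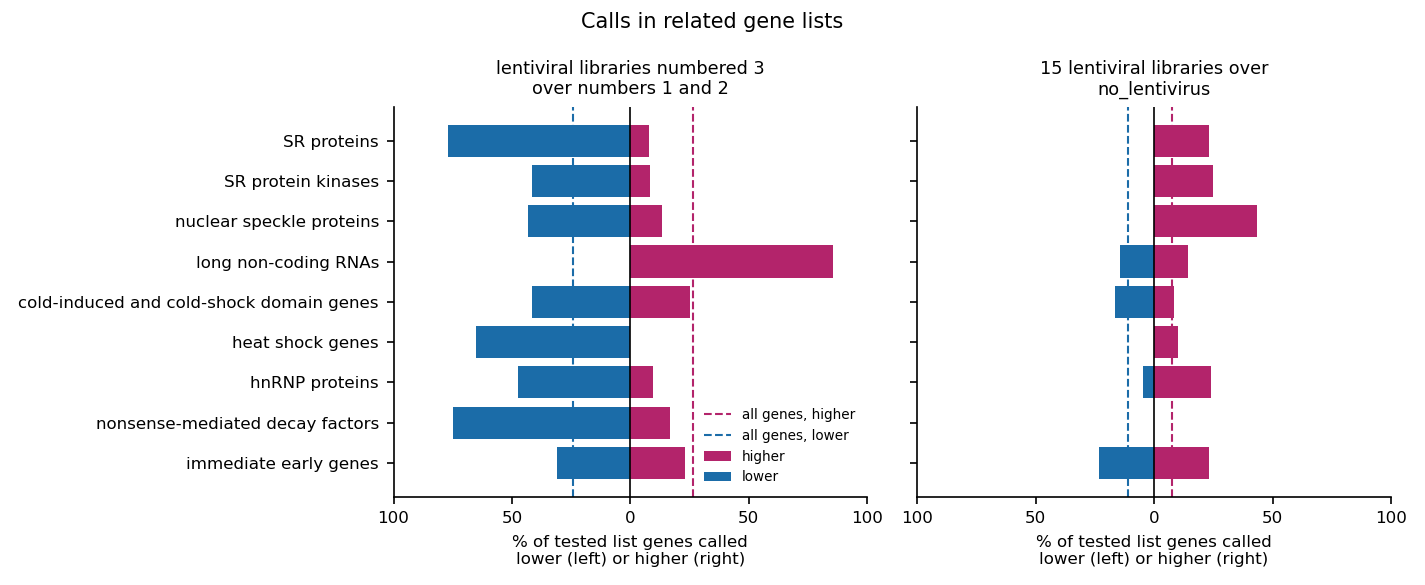
Percent of each related gene list (y axis) called lower (bars to the left) or higher (bars to the right) by edgeR, in lentiviral libraries numbered 3 over numbers 1 and 2 (left) and in the 15 lentiviral libraries over no_lentivirus (right); dashed lines give the percent of all genes. Speckle proteins reach 13 of 30 higher on the right, a count that is 0 without untransduced library 2, and 13 of 30 lower on the left.

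The genes whose log2 levels followed CIRBP most closely over the 18 libraries, among 9296 genes with a mean of at least 10 CPM, were COMTD1 (Pearson r = 0.95), the AP-1 factor gene JUND (0.95) and UBALD1 (0.94). For RBM3 they were NABP2 (0.84), APOO (0.78) and SPATS2L (0.76). The members themselves were left out of this ranking. CIRBP and RBM3 correlated with each other at r = 0.55 over the 18 libraries and 0.28 over the 15 lentiviral ones. For the mean of the other 7 genes they were RSRP1 (0.90), an arginine- and serine-rich protein gene, STX2 (0.89) and CREBZF (0.88). The 18 points share the split between lentiviral and untransduced cells and the untransduced library 2.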

How the data were processed

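Counts per RefSeq transcript were deposited by the authors, 1 table a library, with no normalization; the counting program, its treatment of reads shared by transcripts and strand use are not given in the sources used here. Software in the submitters' processing notes comprises DESeq, R 3.1.2, Bowtie2, Picard and SAMtools, with hg19 as the build. Per the labels' protocols, oligo-dT mRNA was made into Nextera libraries, which do not keep strand. Reads of CIRBP-AS1 and CIRBP, for example, cannot be told apart where these genes overlap. The counts assigned to CIRBP-AS1 reached at most 44 in a library, against 1624 to 3366 for CIRBP. All counts were even, as when both reads of a fragment are counted. Transcripts were assigned to symbols by RefSeq (39324) and GENCODE (517) annotation and summed per gene. The 868 that matched neither were kept in the fits, each as a gene of its own.

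The tests used edgeR 4.0.16 in R 4.3.3: TMM, filterByExpr, 6 group means over all 18 libraries, and quasi-likelihood tests with Benjamini-Hochberg adjustment over 14713 genes at a threshold of 0.05. Number 3 was set against 1 and 2 in the 15 lentiviral libraries with group as a term, and transcript use was tested with diffSpliceDGE. Scripts were tested on simulated data. DESeq2 1.42.0, other scalings, filters, a replicate block and left-out libraries were alternatives, and list calls without untransduced library 2 were added after seeing the data. The members and gene lists were chosen with earlier results of these data known. All 9 members are named. From each list the text names genes among the up to 3 called with the smallest p in a contrast, and some others where a count needs them. Genes most like CIRBP, RBM3 and the mean of the other 7 are the 3 non-members with the highest r. Per the labels, a group's libraries come from triplicate transductions; for no_lentivirus nothing says that cultures were separate, so its spread may be technical. Between lentiviral groups, deviations from the group mean over 12604 genes correlated above 0.1 in 30 of 30 same-number pairs (0.16 to 0.86). They did so in 18 of 60 others, up to 0.58. Pairs numbered 3 correlated at 0.71 to 0.86, pairs numbered 1 at 0.33 to 0.69 and pairs numbered 2 at 0.16 to 0.55. Deviations cancel within a group, so a shift shared by libraries numbered 3 also makes those numbered 1 and 2 correlate. A pairing of numbers 1 and 2 is therefore not shown.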

Additional observations from a re-analysis of the deposited data

How the results depend on the processing

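No alternative called any of the 9 genes in the 8 comparisons of guides and of dCas9-KRAB with dCas9. That covers RLE scaling, no count filter, a mean of at least 50 counts, halved counts, DESeq2, each library left out, lentiviral libraries numbered 1 and 2 only, and the replicate block over the 15 lentiviral libraries, where RBM3 in KRAB_CR10 against KRAB_no_gRNA was at a log2 fold change of -0.33 (edgeR adjusted p = 0.331) and CIRBP in KRAB_CR4 at -0.25 (0.487). Against no_lentivirus, the replicate block over all 18 libraries added RBM3 (0.35) and PNISR (0.59) to the 4 genes called over the lentiviral mean, as DESeq2 did, and the block changed no other call named here. With each library left out, 4 to 5 were called in that contrast. The 5 genes called in KRAB_no_gRNA against no_lentivirus became 2 to 4 with a library left out, the 2 being without KRAB_no_gRNA library 1 or no_lentivirus library 2. They became 3 with lentiviral libraries numbered 1 and 2 and the untransduced, an alternative chosen after seeing the data, and 0 with the compared groups alone, where the fit has fewer samples. Signs turned for 2 small values with libraries left out: CLK1 in number 3 ranged from -0.15 to 0.0026 and CLK2 over the lentiviral mean from -0.029 to 0.18. ARGLU1 in number 3 (-0.19) lay near the threshold and lost its call under 3 other settings of filter or scale and when any of 9 libraries was left out. For calls by number 3 the range was 2 to 4. CLK4, at 126 to 240 counts a library, is the least precisely counted of the 9. The 95% intervals of the guide and KRAB comparisons came from the fit with 3 libraries a group and no replicate block. They lay between -0.79 and 0.86 on the log2 scale over the 9 genes and were widest for PNISR.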
